A study of Mus musculus with 2 samples.

Results

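The genes of glucose transport, glycolysis, glycogen and the pentose phosphate pathway were compared between PeriA Tg and WT mice in perigonadal white adipose tissue (WAT). The pathway was followed through 51 members, chosen by their gene symbols and set in 8 branches, of 18193 genes that the array names. Perilipin A (PeriA) is a protein that coats the lipid droplet of adipocytes. The Tg mice were female C57BL/6 mice, heterozygous for a human PeriA transgene driven by the aP2 promoter/enhancer, which is active in adipocytes, and their WT controls were littermates without it. Both groups were 30 weeks old, had eaten a high-fat diet (HFD) for 25 weeks, in which fat gave 60% of the calories, and were fasted overnight before the tissue was taken. RNA of 3 mice of each genotype was pooled, and each pool was hybridised to 1 Affymetrix mouse genome array. With 1 array for each genotype, no value has an error over mice, no difference was tested, and every difference here describes these 2 pools.

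Glucose enters the adipocyte through transporters of the Slc2a family and is trapped as glucose 6-phosphate by hexokinases. From there it can run down glycolysis to pyruvate and lactate, leave as glycerol 3-phosphate for triglyceride, pass through the pentose phosphate pathway, which makes NADPH for fatty acid synthesis, or be stored as glycogen. White adipocytes hold little glycogen, and their uptake of glucose is driven mainly by insulin.

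The deposited value of each probe set is its MAS5 signal, a brightness on a linear scale after scaling of the whole array. Differences are given as signal log ratios, the log2 of the Tg signal over the WT signal. Values over 0.3 and under -0.3 were counted. A gene was read from the probe set named for it alone that had the highest mean log2 signal, and it passed the signal filter if either array read it at 98.2 or more, the median over both arrays together. Signals of different genes come from different probes, so they do not rank the RNA levels of those genes. Because WAT holds several cell types, fewer cells of a type and less RNA per cell cannot be told apart.

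In all, 46 members had a probe set of their own and 42 passed the signal filter. Those under it were *Aldoc* (23.3 in WT and 68.0 in Tg), *Fbp1* (53.1 and 29.6), *Pgam2* (10.8 and 14.4) and the lactate exporter *Slc16a3* (63.0 and 9.7). *Gapdh* was read by control probe sets alone, and no probe set is named only for *Gpi1*, *Pfkfb1*, *Eno1* or *G6pdx*, the first enzyme of the pentose phosphate pathway.

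Across the passing members, as read from the brightest probe set, more genes were higher in Tg past the threshold than lower, and in several enzyme families 1 isozyme was higher and another lower. The signal log ratio was over 0.3 in 13 of 42 members, or 31.0%, and the same was true of 16.6% of the 11587 genes that passed the filter. It was under -0.3 in 7 members, or 16.7%, beside 16.9% of all genes. The remaining 22 members lay between these values. The members had higher signals than all genes, with medians of 1774.3 in WT and 1993.9 in Tg, against 636.8 and 642.1. Under a stricter signal filter, 11 of 36 members were over 0.3 and 7 under -0.3. Of the 7180 genes under that filter, 14.1% were over and 11.5% under, so both shares were higher among the members. *Pfkfb2* and *Pygm* passed the filter of 98.2 by their Tg signal alone. The 40 members that both arrays carried over it gave 11 over 0.3, 7 under -0.3 and a median of 0.01. Of all 10850 genes that both arrays carried over it, 1675 were over 0.3 and 1583 under -0.3, with a median of 0.03. The mitochondrial glycerol 3-phosphate dehydrogenase *Gpd2* and *Pfkfb2* were the 2 members over 1, a range that held 1.02% of all genes, and no member was under -1, which held 1.87%. The median over the members was 0.06, against 0.02 over all genes, and 22 members lay above 0. Just inside the upper value was *Tkt* at 0.36 and just outside it *Fbp2* at 0.30, and on the lower side *Pgm1* lay inside at -0.30 and *Tpi1* outside at -0.29. The balance turned with the probe set read. In the 20 members with a second-brightest probe set over the filter, the brightest one gave 7 over 0.3 and 3 under -0.3, and the second-brightest gave 5 and 6. Among all genes, the second-brightest probe set put 17.0% of 5260 over 0.3 and 25.8% under -0.3. The brightest one gave 16.6% and 16.9% of 11587. These 2 background readings differ in the set of genes as well as in the probe set. When the 2 arrays were given the same median in place of the same trimmed mean, 15 members were over 0.3 and 6 under -0.3, but the background moved with them, to 24.9% of all genes over and 13.0% under.

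**Figure D1:**
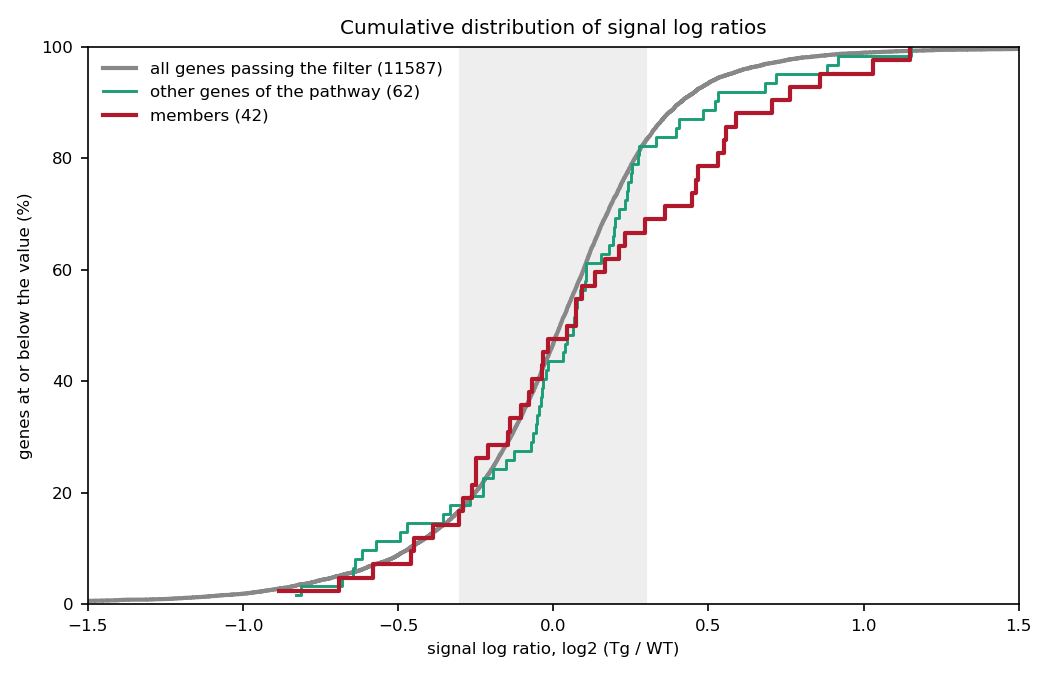
Cumulative distribution of the signal log ratio, log2 (Tg/WT), on the x axis, with the percent of genes at or below each value on the y axis, for the 42 passing members (red), 62 other genes of the pathway (green) and all 11587 passing genes (grey). The red line follows the grey one below 0 and runs under it to the right of the shaded range from -0.3 to 0.3, where 31.0% of the members but 16.6% of all genes lie.

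**Figure D2:**
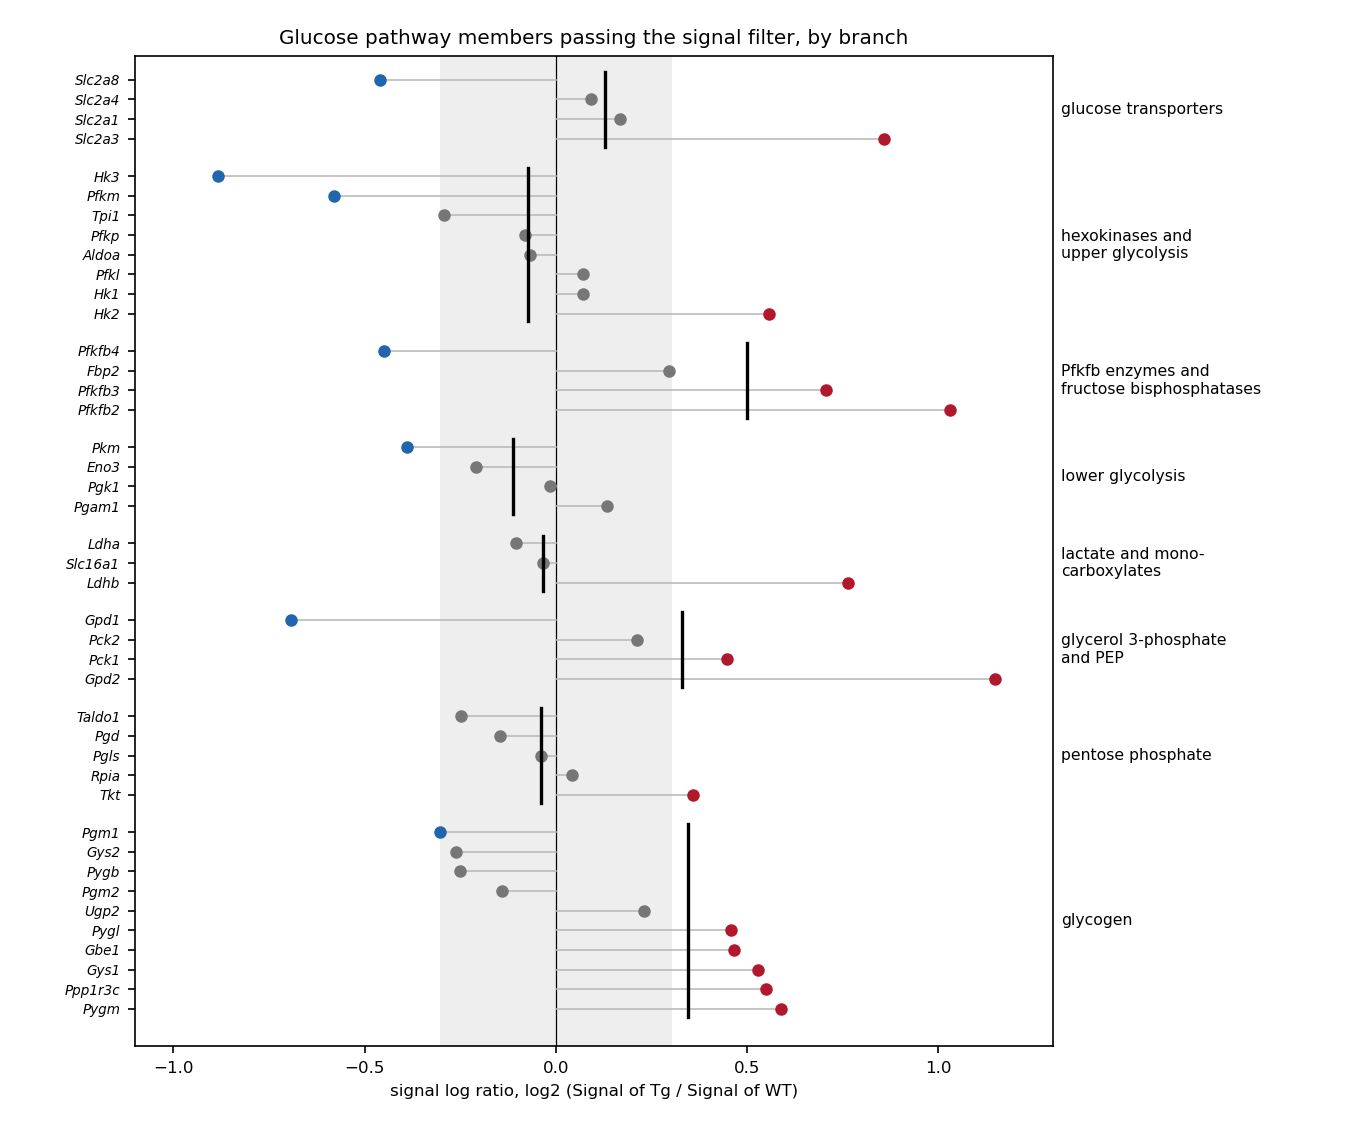
Signal log ratio, log2 (Tg/WT), of each of the 42 passing members by branch. Red points are over 0.3, blue points under -0.3 and grey points in the shaded range between, and a black bar marks the median of each branch. Points of both colours lie in 5 of the 8 branches, and *Pfkfb2* and *Pygm* passed the filter by their Tg signal alone.

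Markers of other cell types differed between the pools as well. All 11 passing brown adipocyte markers, of 13 measured, were over 0.3, with a median of 1.66, and the passing ones summed to 5728 in WT and to 29126 in Tg. Both *Elovl3* and *Dio2* passed by Tg alone, and without them the median was 1.43. *Ucp1*, the uncoupling protein that defines the brown adipocyte, read 115 and 7255, whereas *Zic1* and *Lhx8* were under the filter on both arrays. For the 19 measured macrophage markers the opposite held, since 13 were under -0.3 and none over 0.3, with a median of -0.51 and summed signals of 76042.5 and 55317. *Marco* passed by its WT signal alone, and without it 12 of 18 were under -0.3, with a median of -0.49. Mature adipocyte markers, such as *Adipoq* at 41052 and 43802.5, had a median of 0.09 over 13 genes, with 2 over 0.3 and 1 under -0.3, and summed signals of 350550.1 and 367323. The 4 passing erythroid and platelet markers lay between -0.29 and 0.14. No marker of any list was at 0. How far these lists bear on the members was not tested.

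The promoters of the members were searched for 2 short motifs of factors known to control this pathway. The E-box CACGTG is part of the element bound by the glucose-responsive factor ChREBP, and ACGTG is the core of the element bound by hypoxia-inducible factors. Both were looked for on both strands in RefSeq windows of 300 bases, from 250 before to 50 after each gene start, and every E-box holds the core as well. Windows of 47 members were found, and the genes without one were *Gpd1*, *Slc2a3*, *Slc2a4* and *Gys2*. Some genes have several annotated starts, and a gene was counted if any of its windows held the motif, for members and all genes alike. The E-box was present in 7 members, which were *Pfkfb2*, *Pfkfb3* and *Ppp1r3c* over 0.3, *Pfkm* under -0.3, and *Fbp2*, *Ldha* and *Slc16a1* between. That is 18.4% of the 38 passing members with a window, beside 11.8% of all 9357 passing genes with one. The core was present in 22 of those 38 members, or 57.9%, against 29.7% of the passing genes. By signal log ratio, it was found in 7 of 12 members over 0.3, 4 of 6 under -0.3 and 11 of 20 between, or 58.3%, 66.7% and 55.0%. Counted by window and not by gene, 10.4% of the 67 windows of members held the E-box and 44.8% the core. Over all promoter windows of this length, 7.2% held the E-box and 19.6% the core. A match of letters is not a bound site.

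The 4 windows that follow show the E-box in members of each class, written 5′ to 3′ along the gene's strand in the GRCm38.p6 build. Capitals mark every copy of the core on either strand, and 6 capitals in a row are an E-box. Positions are counted from the annotated start of the window shown. *Pfkfb3* (chr2:11502041-11502340, minus strand) has its E-box starting at -53, *Ppp1r3c* (chr19:36736555-36736854, minus strand) at -104, *Pfkm* (chr15:98092339-98092638, plus strand) at -136, and *Ldha* (chr7:46845554-46845853, plus strand) at -145 and -48. *Pfkfb3*, *Pfkm* and *Ldha* also have windows at other annotated starts, and those hold no E-box.
Pfkfb3: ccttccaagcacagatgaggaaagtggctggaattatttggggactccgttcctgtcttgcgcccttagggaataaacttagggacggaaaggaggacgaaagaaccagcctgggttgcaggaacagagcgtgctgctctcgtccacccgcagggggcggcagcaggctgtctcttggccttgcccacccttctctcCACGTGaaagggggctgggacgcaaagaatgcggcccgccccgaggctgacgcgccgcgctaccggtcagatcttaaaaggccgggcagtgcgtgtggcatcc
Ppp1r3c: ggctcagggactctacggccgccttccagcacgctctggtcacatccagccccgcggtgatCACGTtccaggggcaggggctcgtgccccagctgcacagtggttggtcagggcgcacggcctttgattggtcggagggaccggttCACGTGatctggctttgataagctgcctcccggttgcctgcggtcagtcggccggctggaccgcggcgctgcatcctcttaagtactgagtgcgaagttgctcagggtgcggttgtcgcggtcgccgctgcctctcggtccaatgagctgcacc
Pfkm: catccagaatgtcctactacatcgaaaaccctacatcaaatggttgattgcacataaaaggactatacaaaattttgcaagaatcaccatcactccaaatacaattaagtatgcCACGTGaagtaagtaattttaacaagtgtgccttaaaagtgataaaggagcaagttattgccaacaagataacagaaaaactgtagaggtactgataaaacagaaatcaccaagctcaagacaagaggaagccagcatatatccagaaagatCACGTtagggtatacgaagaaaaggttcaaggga
Ldha: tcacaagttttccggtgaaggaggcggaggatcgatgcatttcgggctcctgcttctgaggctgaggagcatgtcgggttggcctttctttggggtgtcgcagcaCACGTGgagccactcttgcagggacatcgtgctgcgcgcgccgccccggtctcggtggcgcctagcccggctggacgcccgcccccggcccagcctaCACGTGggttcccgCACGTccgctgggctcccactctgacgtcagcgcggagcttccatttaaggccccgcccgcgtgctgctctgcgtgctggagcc

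Among the 4 glucose transporters, the highest and the lowest signal log ratios were 1.32 apart on the log2 scale. *Slc2a3*, a high-affinity transporter, read 268 in WT and 487 in Tg, which gives 0.86 as the signal log ratio. Its next probe set read 127 and 203, or 0.68, so both placed it higher in Tg. *Slc2a8*, an intracellular hexose transporter with a single probe set, read 543.5 and 395, or -0.46. The insulin-responsive transporter *Slc2a4* (GLUT4) differed little in its brighter probe set, at 2269 and 2417, or 0.09. However, its other probe set read 1089 and 678, or -0.68, so that the direction for this gene depends on the probe set. The basal transporter *Slc2a1* gave 0.17, -0.02 and -0.07 in its 3 probe sets. The branch median was 0.13. Outside the members, 4 of 10 other hexose transporters passed, of which *Slc2a12* was over 0.3 (178 and 249, or 0.48) and *Slc2a10* under -0.3 (178 and 111, or -0.68).

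The hexokinases, which commit glucose to metabolism in the cell, went separate ways. *Hk2*, the insulin-responsive form, read 1379 in WT and 2030.3 in Tg, or 0.56. *Hk3*, a form found chiefly in myeloid cells, read 474 and 257, or -0.88, and its other probe set gave -0.74. *Hk1*, the widely expressed form, stood between them at 0.07. *Hk2* and *Hk3* were thus 1.44 apart. Beside the value of *Hk3*, the macrophage markers had the median of -0.51 given above, and of 4 passing neutrophil markers 2 were under -0.3 and 1 over 0.3. Those 4 summed to 2626 and 1149.9, and *S100a9* passed by its WT signal alone and *Csf3r* by its Tg signal alone. Their part in it was not tested.

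Phosphofructokinase sets the pace of glycolysis, and only its muscle form differed past the threshold in the probe set used. *Pfkm* read 644 and 431, or -0.58, and *Pfkl*, the liver form, 1853 and 1947, or 0.07. *Pfkp*, the platelet form, gave -0.08 in its brightest probe set at 1986 and 1880.2, but -0.91 and -0.85 in the others, whose signals on the WT array were 293.5 and 140.4. Among skeletal muscle markers 7 of 15 passed. The 2 that both arrays carried over the filter were level, *Acta1* at -0.03 (5451 and 5353) and *Myl1* at -0.06 (2265 and 2169.9). The other 5 passed by their WT signal alone and were under -0.3, which the filter favours. Among them, *Pvalb* differed most, at 391 and 49.6, or -2.98. Under a filter on the mean signal, which favours neither direction, 2 of 4 muscle markers were under -0.3 and none over 0.3. All 15 summed to 9004.5 and 8089.9, most of which came from *Acta1* and *Myl1*. *Ckm*, *Mb* and 3 fast myosin heavy chains were under the filter on both arrays. Their part in the value of *Pfkm*, or of *Fbp2*, *Eno3* and *Pygm*, which muscle also expresses, was not tested.

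Below this step, aldolase A (*Aldoa*) read 21119 and 20152.5, or -0.07, and its 5 probe sets lay between -0.22 and 0.16. Triose phosphate isomerase (*Tpi1*) was lower in each of its 3 probe sets, at -0.29, -0.39 and -0.30. For the 8 passing genes of hexokinases and upper glycolysis the median was -0.07, with 1 over 0.3 and 2 under -0.3.

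Fructose 2,6-bisphosphate is the strongest activator of phosphofructokinase and is made and broken down by the bifunctional Pfkfb enzymes. *Pfkfb3*, the form with the highest kinase over phosphatase activity, read 4363 in WT and 7116 in Tg, or 0.71. A weaker probe set of this gene, at 220 and 204, gave -0.11 instead. *Pfkfb2*, the heart form, read 94.3 and 192.5, or 1.03, but it passed the filter by its Tg signal alone. Its other probe sets did not pass, and they gave -0.02, -0.58 and 0.37, so they do not share a direction. *Pfkfb4* went the other way, at 725 and 531, or -0.45. *Pfkfb2* and *Pfkfb4* differed by 1.48. *Fbp2*, the muscle fructose bisphosphatase, which runs the reverse reaction in gluconeogenesis, read 106.5 and 131, or 0.30. The median of these 4 genes was 0.50 and, without *Pfkfb2*, 0.30. Of these genes, *Pfkfb2*, *Pfkfb3* and *Fbp2* have an E-box. Members over 0.3, under -0.3 and between hold one, as given above, and a link of the motif to these values was not tested.

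Lower glycolysis, from glyceraldehyde 3-phosphate to pyruvate, was close to level between the arrays. Phosphoglycerate kinase (*Pgk1*) read 6701 and 6627, or -0.02, with 0.11 and -0.32 in its other probe sets. Phosphoglycerate mutase *Pgam1* gave 0.14 and the muscle enolase *Eno3* -0.21. The exception was pyruvate kinase *Pkm*, at 3117 and 2382, or -0.39. As *Pkm* and *Pfkp* are abundant in macrophages, the macrophage markers, with their median of -0.51, stand beside these values, and their part in them was not tested. *Slc2a3*, also known from macrophages and neutrophils, went the other way, at 0.86 and 0.68 in its passing probe sets. *Slc16a3*, known from them too, was under the filter. The median over the branch was -0.11. For *Gapdh*, the 3 control probe sets ran from -0.31 at the 5′ end (22132 and 17862) through -0.10 in the middle to 0.02 at the 3′ end (18397 and 18663), so its value depended on where along the transcript it was read.

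Lactate dehydrogenase interconverts pyruvate and lactate, and its subunits parted. *Ldhb*, the heart subunit, read 1696 in WT and 2879 in Tg, or 0.76, and its 4 probe sets lay between 0.62 and 0.79. *Ldha*, the muscle subunit, read 17597 and 16384, or -0.10, a difference of 0.87 between the 2 subunits. The monocarboxylate transporter *Slc16a1* was near 0, at 4155 and 4060.3, or -0.03. *Ldha* and *Slc16a1* carry an E-box, whereas the window of *Ldhb* holds neither motif. Of 11 passing genes among other lactate, pyruvate and glycerol genes, 2 were over 0.3 and 1 under -0.3. These were the transporters *Slc16a6* (65.4 and 145, or 1.15) and *Slc16a7* (0.40), the former passing by its Tg signal alone, and *Emb*, a chaperone of monocarboxylate transporters (697 and 455, or -0.62). The mitochondrial pyruvate carrier *Mpc1*, pyruvate carboxylase *Pcx* and the glycerol channel *Aqp7* were at 0.10, -0.23 and -0.05.

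**Figure D3:**
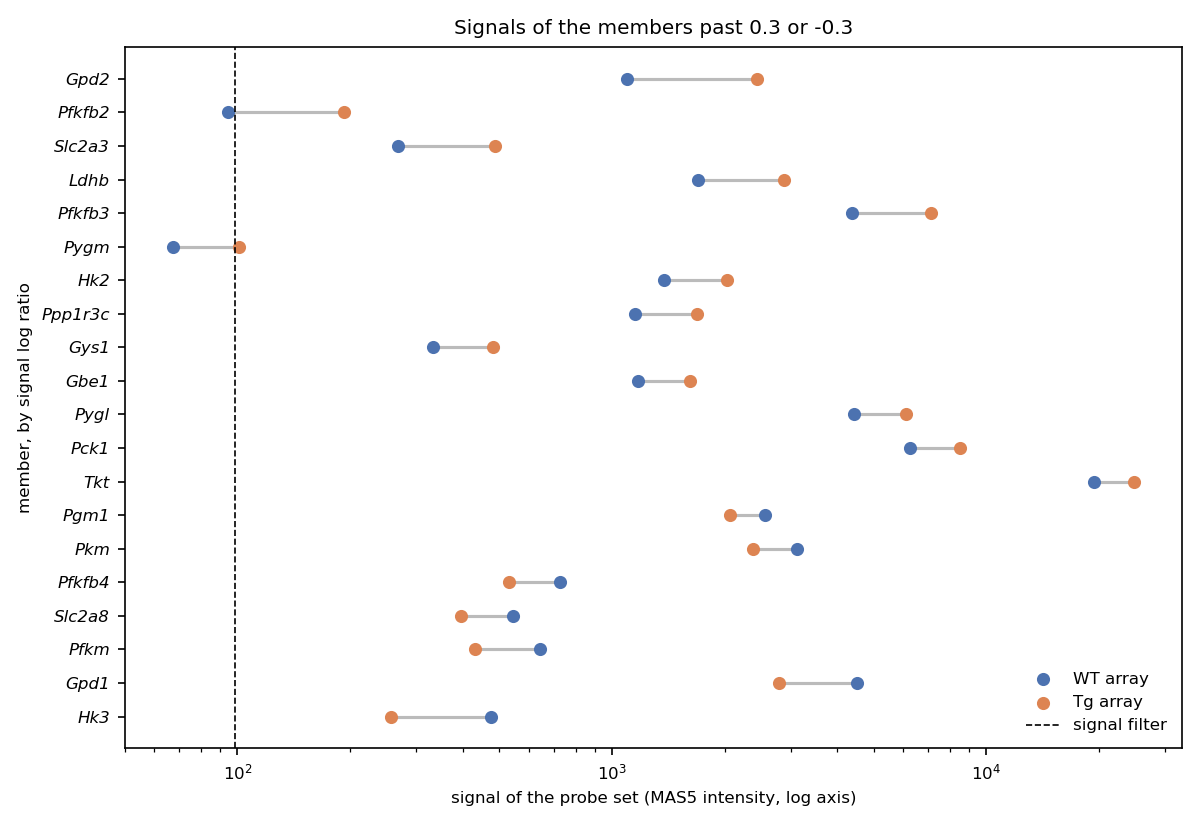
MAS5 signal in WT (blue) and Tg (orange) for the 20 members past 0.3 or -0.3, on a log axis, ordered by signal log ratio, with a dashed line at the signal filter of 98.2. The 13 members at the top have the orange point to the right, from *Gpd2* (1098 and 2435) down to *Tkt* (19327 and 24779), and *Pfkfb2* and *Pygm* start to the left of the dashed line.

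Of 10 enzyme families with at least 2 passing members, the widest gap lay between the glycerol 3-phosphate dehydrogenases, which connect glycolysis with glycerolipid synthesis and, through the glycerol phosphate shuttle, with the respiratory chain. *Gpd2*, the mitochondrial enzyme, which is abundant in brown fat, read 1098 in WT and 2435 in Tg, or 1.15, a ratio of 2.22. Its other 2 passing probe sets gave 1.10 and 1.15. *Gpd1*, the cytosolic enzyme that makes glycerol 3-phosphate, read 4521 and 2800.5, or -0.69. A further probe set of *Gpd1* gave -1.01 at 1067.5 and 531, and the weakest passing one -0.01 at 319 and 317. The 2 genes were 1.84 apart on the log2 scale. The brown adipocyte markers stand beside the value of *Gpd2* with a median of 1.66, and their part in it was not tested.

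Phosphoenolpyruvate carboxykinase is the key enzyme of glyceroneogenesis, which supplies glycerol 3-phosphate during fasting. Its cytosolic form *Pck1* read 6249.8 and 8527, or 0.45. Its second probe set went the other way, at 1926.5 and 1110.2, or -0.80, so that its probe sets disagree in direction. The mitochondrial form *Pck2* gave 0.21 and -0.14 in its 2 passing probe sets. The median of the 4 genes of this branch was 0.33, and its sign was not stable, since it was -0.07 with the median over the probe sets of each gene and -0.47 with the second-brightest ones.

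The pentose phosphate enzymes differed little. Transketolase (*Tkt*), of the non-oxidative arm, read 19327 in WT and 24779 in Tg, or 0.36. A second probe set gave 0.44 (4977 and 6740.5), and a further, weak one -0.23. The other members were 6-phosphogluconate dehydrogenase *Pgd* at -0.15 (15793 and 14264, with 4 probe sets between -0.39 and -0.06), *Pgls* at -0.04, *Rpia* at 0.04 and transaldolase *Taldo1* at -0.25. The median was -0.04 over 5 genes. Among other genes of the pathway none of 6 passing was over 0.3, and 2 were under -0.3. *Prps1*, which turns ribose 5-phosphate into the precursor of nucleotides, read 7494 and 4794.5, or -0.64, and ribokinase *Rbks* gave -0.49.

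Of the 10 glycogen genes, the branch with the most passing members, 5 were over 0.3, and they stood at its synthesis, its branching and its breakdown. The Pfkfb and the glycerol 3-phosphate branches had the same share, each with 2 of 4. Glycogen synthase 1 (*Gys1*) read 332.5 in WT and 480.0 in Tg, or 0.53, and the branching enzyme *Gbe1* 1174.5 and 1621, or 0.46. The other probe set of *Gys1* did not pass, at 53.0 and 56.5, or 0.09. *Ppp1r3c*, a subunit that brings protein phosphatase 1 to glycogen and so activates the synthase, read 1151 and 1686, or 0.55. Its weaker probe set was level, at 339.9 and 326, or -0.06. Of the phosphorylases, which release glucose 1-phosphate, the liver form *Pygl* read 4423 and 6082, or 0.46. The muscle form *Pygm* read 67.1 and 101, or 0.59, and passed the filter by its Tg signal alone. The brain form *Pygb* gave -0.25 (2328 and 1957.5). Liver glycogen synthase *Gys2* gave -0.26, so that the synthases were 0.79 apart and the phosphorylases up to 0.84.

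At the steps that feed glycogen, no member was over 0.3 in its brightest probe set. Phosphoglucomutase *Pgm1* read 2557 and 2073, or -0.30, but 0.69 in a weak second probe set at 94.5 and 153, and *Pgm2* gave -0.14. The name *Pgm1* is the current one, and older lists of mouse genes exchange these symbols. UDP-glucose pyrophosphorylase *Ugp2*, which makes the sugar donor of the synthase, gave 0.23 (4021 and 4720.2), with 5 probe sets between -0.25 and 0.35. The median over the 10 glycogen genes was 0.35, and without *Pygm* it was 0.23 with 4 of 9 over 0.3.

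Other genes of glycogen metabolism had 5 of 17 over 0.3 and 2 under -0.3, with a median of 0.20. The phosphatase subunit *Ppp1r3f* read 181 and 341, or 0.92, laforin *Epm2a*, the glycogen phosphatase, 74.3 and 119, or 0.68, passing by its Tg signal alone, and *Stbd1*, which tethers glycogen to membranes, 582 and 841, or 0.53. Phosphorylase kinase was split, with its subunit *Phkb* at 0.33 and *Phkg2* at -0.47. Taking together the 62 passing genes of the pathway that are no members, 11 were over 0.3 and 11 under -0.3, or 17.7% each, with a median of 0.07, beside the 16.6% and 16.9% of all genes.

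**Figure D4:**
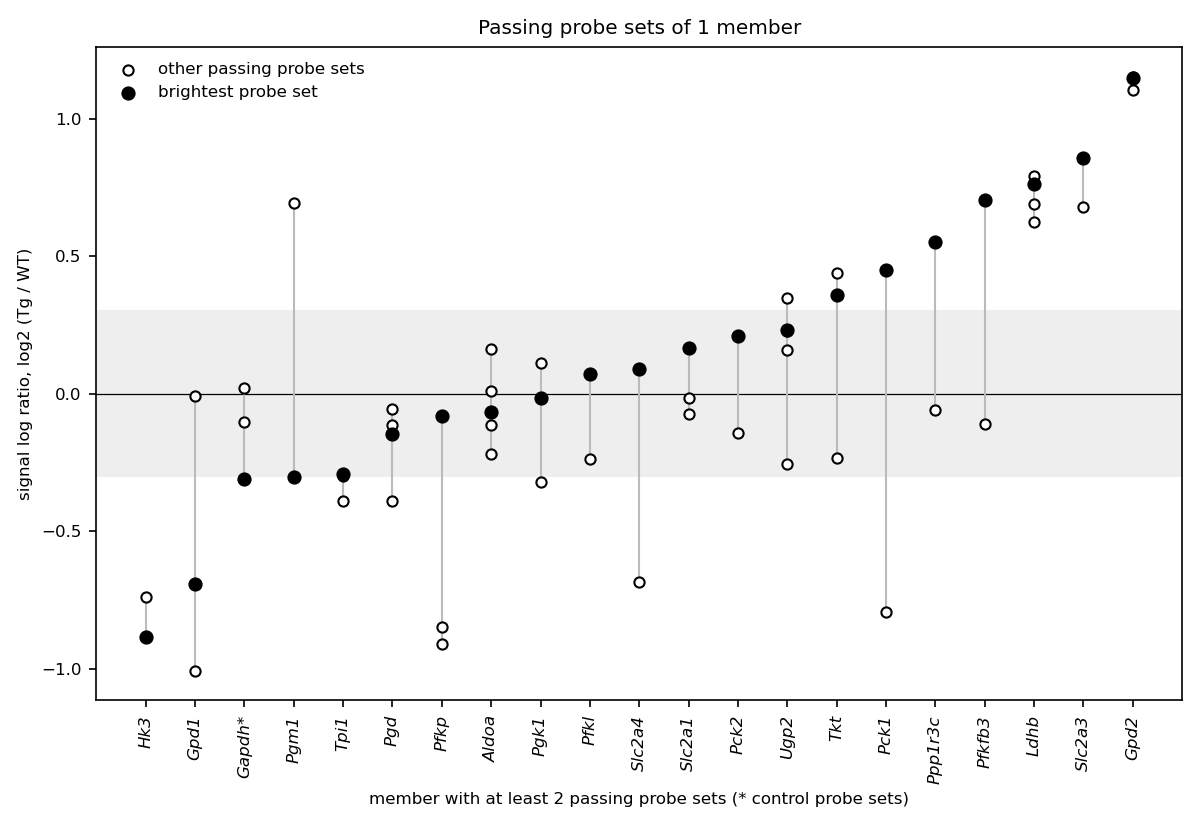
Signal log ratio, log2 (Tg/WT), of every passing probe set of the 20 members with at least 2, and of the control probe sets of *Gapdh*. Filled points are the probe set used for the gene and open points the others. All points of *Gpd2*, *Slc2a3* and *Ldhb* lie above the shaded range from -0.3 to 0.3, and those of *Pck1* and *Pgm1* lie on both sides of it.

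How firmly a member was read can be judged from its other probe sets. Of 20 members with at least 2 passing probe sets, 8 had all of them in the same class, *Pck1* and *Pgm1* had probe sets both over 0.3 and under -0.3, and the second probe set was lower than the brightest in 15. Over the 20 members, the median difference of second minus brightest was -0.16. Over 5260 genes the pooled SD between probe sets of a gene was 0.41, which covers the reading of the same pools and not the spread between mice. Of the members past the threshold with several passing probe sets, *Gpd2*, *Slc2a3*, *Ldhb* and *Hk3* kept their class in each, whereas *Pfkfb3*, *Ppp1r3c*, *Tkt* and *Gpd1* each had 1 probe set in the middle range.

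**Figure D5:**
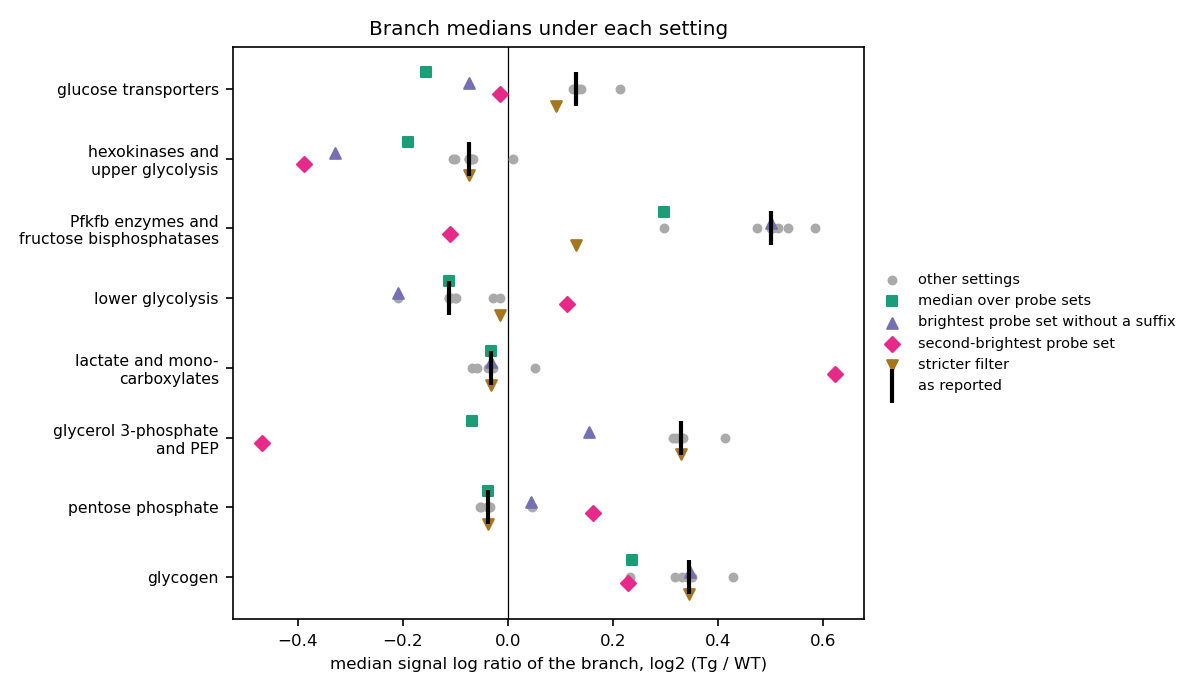
Median signal log ratio, log2 (Tg/WT), of each branch as reported (black bar) and under each other setting. Coloured symbols are the settings that change the probe set read for a gene or raise the signal filter, and grey points are the rest. The glycogen genes stay between 0.23 and 0.43, whereas the glycerol 3-phosphate and phosphoenolpyruvate (PEP) genes cross 0. Only 3 of the 10 glycogen genes have a second-brightest probe set over the filter, but all 4 glycerol 3-phosphate and PEP genes do.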

How the data were processed

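Perigonadal WAT of HFD-fed Tg and WT mice was measured on 2 Mouse Genome arrays, each with RNA pooled from 3 mice, and groups were taken from the sample labels. Per the methods, the authors analysed the scans with GeneChip Operating Software ver1.4, and MAS5 is named in the submitters' processing notes. The deposited table gives 1 intensity per probe set and array, on a linear scale. MAS5 subtracts mismatch from perfect-match probes, so that weak signals are noisy. Leaving out the lowest and highest 2% of signals, both arrays had a mean of 500.0, and the medians were 101.1 (WT) and 95.4 (Tg). The table holds 45101 probe sets, of which 64 are controls and were left out. Platform annotation, which can be old, gave 34945 of the others 1 symbol, 932 several and 9160 none.

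The log2 ratio was computed without a pseudocount, and the signal filter of 98.2 stands in for the Present call of the methods. Named are all members past 0.3 or -0.3, the member with the highest signal in each branch (a choice for display only), and of the other pathway lists genes past 1 or -1 and up to 3 past 0.3 or -0.3; further ones were named after their values were seen. Members, lists and markers were chosen with earlier results of these data known. Scaling (median centring, quantile, loess with a span of 0.3), a pseudocount of 25.1, a floor of 56.9, no filter or one at 470.5, and 3 other ways to read a gene were tried. Equal array medians, a filter on the mean signal and *Gapdh* from its control probe set were added after seeing the data. Python 3.11.15, numpy 2.4.6, pandas 2.3.3, scipy 1.17.1 and statsmodels 0.14.6 were used. Promoters came from RefSeq (GRCm38.p6), with 67 windows for members. Precision is limited by the number of arrays. Scanner files and detection calls were not used here.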

Additional observations from a re-analysis of the deposited data

How the results depend on the processing

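Over 14 settings, the number of members over 0.3 ran from 5 to 15 and under -0.3 from 6 to 9. The lowest count, 5, came from the second-brightest probe set, which only 20 members have, where 6 were under -0.3, and with at least 42 members the count over 0.3 stayed between 10 and 15. A filter on the mean signal, which favours neither direction, gave 12 over, 7 under and a median of 0.04 over 41 members. These are 29.3% and 17.1%, beside 15.9% and 15.7% of all genes under that filter, whose median was 0.02. All 13 members over 0.3 stayed there under each of the 4 scalings, and 6 of the 7 under -0.3 did, the exception being *Pgm1*. Median centring and equal array medians raise every ratio by the same amount. Only the quantile and loess scalings could therefore have taken members out of the 13. Equal array medians gave a median over members of 0.14, against 0.11 over all genes. They raised the share of all genes past 0.3 or -0.3 that were over from 49.6% to 65.6%. With the second-brightest probe set this share was 39.6%, but over a smaller set of 5260 genes. *Gapdh* from its control probe set made 8 members under -0.3.

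The reading of a gene mattered more. With the median over probe sets, the median was -0.025 over members, -0.16 for transporters and -0.069 for glycerol 3-phosphate and PEP genes, with *Pck1* at -0.17 and *Pgm1* at 0.19. With brightest probe sets without a suffix for shared transcripts, it was -0.033 over 31 members and -0.33 for hexokinases and upper glycolysis. With second-brightest probe sets, it was -0.11 over members, -0.39 for hexokinases and upper glycolysis, -0.11 for Pfkfb and fructose bisphosphatase genes (1 gene), 0.11 for lower glycolysis (1 gene), 0.62 for lactate genes (1 gene), -0.47 for glycerol 3-phosphate and PEP genes and 0.16 for pentose phosphate genes, with *Pfkfb3* at -0.11, *Pck1* at -0.80, *Pgm1* at 0.69 and *Ppp1r3c* at -0.060. The stricter filter left 2 Pfkfb genes, with a median of 0.13. The glycogen median stayed between 0.23 and 0.43 over all 14 settings. Most of the 10 glycogen genes have a single passing probe set, so the choice of probe set could move this median little. With second-brightest probe sets it was 0.23 over 3 genes. No paired analysis was possible because each genotype has 1 array, and spread between mice could not be measured.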

Other observations

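The side paths of hexose metabolism and the factors known to control the pathway were read in the same way. Of 14 passing genes among other hexose and glycolysis enzymes, 2 were over 0.3 and 4 under -0.3, with a median of -0.04. That is 14.3% and 28.6%, beside 16.6% and 16.9% of all genes. The 12 that both arrays carried over the filter gave 2 over and 2 under. The ADP-dependent glucokinase *Adpgk* read 144 in WT and 266 in Tg, or 0.88. Of the enzymes that lead into protein glycosylation, phosphomannomutase *Pmm1* read 792 and 1302, or 0.72, and phosphomannose isomerase *Mpi* 436 and 294, or -0.57. The neuronal enolase *Eno2* was lower in Tg, at 152 and 97.9, or -0.64, and so was *Gapdhs*, at 119.5 and 67.2, or -0.83. Both passed the filter by their WT signal alone.

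All 10 glucose and hypoxia responsive regulators passed the filter, 1 over 0.3 and 1 under -0.3, with a median of 0.07. *Mlxipl*, which encodes ChREBP, gave 0.07 and *Txnip*, a well-known target of it, 0.06 at 17660.0 and 18471. *Mlxip*, which encodes the related factor MondoA, read 638 and 363.5, or -0.81. Of the hypoxia-inducible factors, *Hif1a* gave -0.23 and *Epas1* 0.19, and their partner *Arnt* read 538 and 771, or 0.52. Protein levels and enzyme activities were not measured on these arrays. Of 3 passing epithelial markers, *Krt18* was over 0.3, at 0.60.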
